A study of Homo sapiens with 4 samples.

Results

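H4K20me1 was examined at 60 genes of chromosome condensation, sister chromatid cohesion, the cyclin-dependent kinases and the mitotic spindle. The genes were chosen by name and function, with earlier results of these data known. A peak was given to a gene when the authors' annotation paired it with that symbol and did not class it as distal intergenic. By this rule 40 of the 60 genes had at least 1 peak. They held 103 peaks, out of 19703 gene-linked peaks and 25514 peaks in the whole table. The remaining 20 genes had none: NCAPD2, NCAPG, NCAPH, SMC2, CCND1, CCND2, CCNE1, CDC25B, CDC25C, AURKA, AURKB, CDCA8, PLK4, BUB1B, CDC20, KIF23, CENPE, NUF2, E2F1 and FOXM1. Of these, CCNE1 and NUF2 were named only in distal intergenic peaks, which were not used.

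The mark, monomethylation of lysine 20 on histone H4, was mapped by CUT&Tag, in which an antibody tethers the Tn5 transposase to marked chromatin. The cells were Kasumi-1, a myeloid leukemia line with the t(8;21) translocation. There were 4 libraries of 100000 cells each: 2 with a non-targeting guide (sgNT, labelled wild type), the control, and 2 in which SETD8, also called KMT5A, was knocked out by CRISPR/Cas9 with sgSETD8. The table held 1 value per peak and group, so no spread between libraries could be computed and nothing below has a replicate check. All 4 libraries came from this 1 line in the same medium, and the labels do not say whether the knockout cells were a pool or a clone, or how long after editing they were taken. Column headers do not name the groups, so values are given as first-listed and second-listed. Since the comparison is named with the treated group ahead of the control, the knockout may be the first-listed one. Of 6 marker genes of the line, CD34, KIT, RUNX1 and RUNX1T1 had peaks, while CD33 and MPO had none. A chromatin mark does not measure their expression.

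SETD8 is the enzyme that writes H4K20me1. It accumulates toward G2 and mitosis and is degraded in S phase, so the mark itself varies through the cell cycle, and in interphase it spreads over the bodies of many active genes. Condensin II, which compacts chromosomes in prophase, is known to contact the mark through its HEAT-repeat subunits NCAPD3 and NCAPG2. Most genes for spindle and cytokinesis proteins are transcribed in G2 and mitosis from promoters that carry a CCAAT box and a CHR element (cell cycle genes homology region), which the DREAM and MuvB complexes bind.

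Promoter sequences are shown for 6 of the 11 genes whose start lay under a peak, with the 150 bases before it outside the gene. They were picked by role: CCNB2 for the cyclins, PRC1, KIF11 and TOP2A for genes of the spindle and mitotic chromosome, SMC4 for the core of condensin and NCAPG2 for condensin II. Each run is the 150 bases before the RefSeq start of GRCh38.p14, written 5′ to 3′ on the strand of the gene, and capitals mark a CCAAT box (CCAAT or its reverse ATTGG) or a CHR element (TTTGAA or its variant TTCGAA on either strand, with TTCAAA the reverse of the former). Their positions are CCNB2 chr15:59104996-59105145 (plus strand), PRC1 chr15:90994536-90994685 (minus strand), KIF11 chr10:92592980-92593129 (plus strand), TOP2A chr17:40417897-40418046 (minus strand), SMC4 chr3:160399500-160399649 (plus strand) and NCAPG2 chr7:158704805-158704954 (minus strand).
CCNB2: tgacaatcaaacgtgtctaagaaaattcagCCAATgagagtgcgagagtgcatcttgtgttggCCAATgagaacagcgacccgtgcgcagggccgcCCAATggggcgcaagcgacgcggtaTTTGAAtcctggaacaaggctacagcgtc
PRC1: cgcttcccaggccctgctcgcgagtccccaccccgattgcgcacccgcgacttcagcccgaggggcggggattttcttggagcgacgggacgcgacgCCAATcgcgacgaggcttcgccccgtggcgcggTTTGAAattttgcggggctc
KIF11: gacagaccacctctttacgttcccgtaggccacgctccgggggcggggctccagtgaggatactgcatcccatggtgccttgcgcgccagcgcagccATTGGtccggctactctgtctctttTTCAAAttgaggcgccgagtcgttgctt
TOP2A: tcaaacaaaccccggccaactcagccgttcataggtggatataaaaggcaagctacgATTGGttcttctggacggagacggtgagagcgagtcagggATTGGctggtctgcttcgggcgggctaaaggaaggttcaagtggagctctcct
SMC4: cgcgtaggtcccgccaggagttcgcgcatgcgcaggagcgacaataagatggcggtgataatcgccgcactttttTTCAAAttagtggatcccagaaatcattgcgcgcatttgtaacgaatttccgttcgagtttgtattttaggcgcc
NCAPG2: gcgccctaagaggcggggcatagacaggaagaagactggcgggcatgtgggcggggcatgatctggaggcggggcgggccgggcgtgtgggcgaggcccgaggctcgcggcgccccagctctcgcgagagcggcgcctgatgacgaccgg
The CHR element began 29 bases before the start in CCNB2 and 20 bases before it in PRC1, and in KIF11 it was on the opposite strand, 28 bases before. In CCNB2 the 3 CCAAT boxes began at 120, 87 and 54 bases before the start, and no 2 marked motifs shared a base. TOP2A held 2 CCAAT boxes and no CHR element in these letters, SMC4 a CHR element alone, and NCAPG2 neither. The genes not printed, CCNB1, CDC25A, CDK4, MAD2L1 and SMC3, had no CHR element in the same stretch. Of these, CCNB1 and CDC25A held CCAAT boxes, and CDK4, MAD2L1 and SMC3 held neither motif. The printed genes are thus richer in CHR elements than those left out. Over windows from 250 bases before to 50 after a start, 48 of the 60 genes had 68 windows. A CHR element on either strand was in 47.1% of them and in 16.4% of all 35116 RefSeq windows, and a CCAAT box in 54.4% and 34.6%. Both motifs together were in 32.4% and 6.38%, and an E2F site (TTTGGCGC, TTTCCCGC or TTTCGCGC, either strand) in 16.2% and 2.74%. Of the 14 windows with at least 150 bases inside a peak, 9 (64.3%) held a CHR element, against 23 (42.6%) of the other 54. No such split was computed for all RefSeq windows. These windows count a match at any position, and those of TOP2A and NCAPG2 held matches not wholly inside the 150 bases printed. A match of letters is a description and shows no binding.

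A listed peak was more frequent at these genes than at protein-coding genes at large. The 40 of 60 genes with a peak made up 66.7%, against 37.9% of 19974 protein-coding RefSeq genes. The median gene length was 30518 bases for the mitosis genes and 24170 bases for all protein-coding genes, and the part of length in the share was not tested. The 103 peaks had a median of 97 and 105 reads per kb of peak (first-listed and second-listed). The medians over all gene-linked peaks were 79.8 and 77.9. The higher signal was not shared by all roles. Medians were 155 and 162 in the 35 peaks of cohesin and 109 and 119 in the 9 of condensin. The 59 peaks of the other roles had 67.2 and 85.2, below all gene-linked peaks in the first-listed group and above them in the second-listed. Of the 103 peaks, 50 were classed as promoter, 44 as intron, 5 as exon and 4 as untranslated region. Depth over the whole table was 2791123 and 2682780 reads in peaks, with a median of 72 in each column. The median peak of the mitosis genes held 112 and 132 reads.

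Mean differences at these genes leaned toward lower H4K20me1 in the first-listed group, while genes at large leaned the other way as deposited but not with equal reads in peaks. The mean peak log2 fold change, first-listed minus second-listed, was below 0 in 25 of 40 genes (62.5%), against 38.1% of 9020 genes with a peak. The median was −0.125 over the mitosis genes and 0.084 over all genes. Summed reads did not lean as deposited: the 103 peaks held 15623 and 16336, a log2 ratio of −0.007 (−0.039 to 0.024). The ratio over all peaks with a gene symbol was 0.136. NIPBL alone held 5489 and 4981 of the summed reads. With both columns scaled to equal reads in peaks, every log2 fold change moved by −0.114, and 33 of 40 mitosis genes and 53.7% of all genes were below 0. Peak by peak, 56 of 103 (54.4%) were below 0, 46 above and 1 at 0, against 38.1% of gene-linked peaks below 0. Whether fewer cells carried the mark at a gene or each cell carried less cannot be told apart in bulk chromatin.

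None of the 103 peaks was called. The authors' deposited table had an adjusted p under 0.05 at 0 of these peaks and at 0 of all 25514 (0%), and the lowest value at the mitosis genes was 0.649. With the unadjusted p and a limit of 0.05, the authors' deposited table had 6 of the 103 lower in the first-listed group (5.83%, against 1.31% of gene-linked peaks) and 0 higher (against 3.89%). These 6 lay at CEP72, PRC1, SMC4, BIRC5, CENPF and KIF20A. By size alone, 11 peaks in 10 genes had a log2 fold change of −0.5 or lower (10.7%, against 7.03%), and 7 peaks in 6 genes one of 0.5 or higher (6.8%, against 15%). With equal reads in peaks these numbers were 20 and 3, against 11.2% and 9.21% of gene-linked peaks. Exact Clopper-Pearson 95% intervals, which cover counting error only, lay below 0 in 18 peaks (17.5%, against 7.54%) and above 0 in 8 (7.77%, against 20.1%). With recovered reads halved, since both ends of a fragment may have been counted, they lay below 0 in 10 peaks (9.71%, against 2.99%) and above 0 in 6 (5.83%, against 11.1%). Without CEP72, a gene that earlier results of these data had already placed among the lowest, 10 of 99 peaks were at −0.5 or lower and the median over genes was −0.120.

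**Figure D1:**
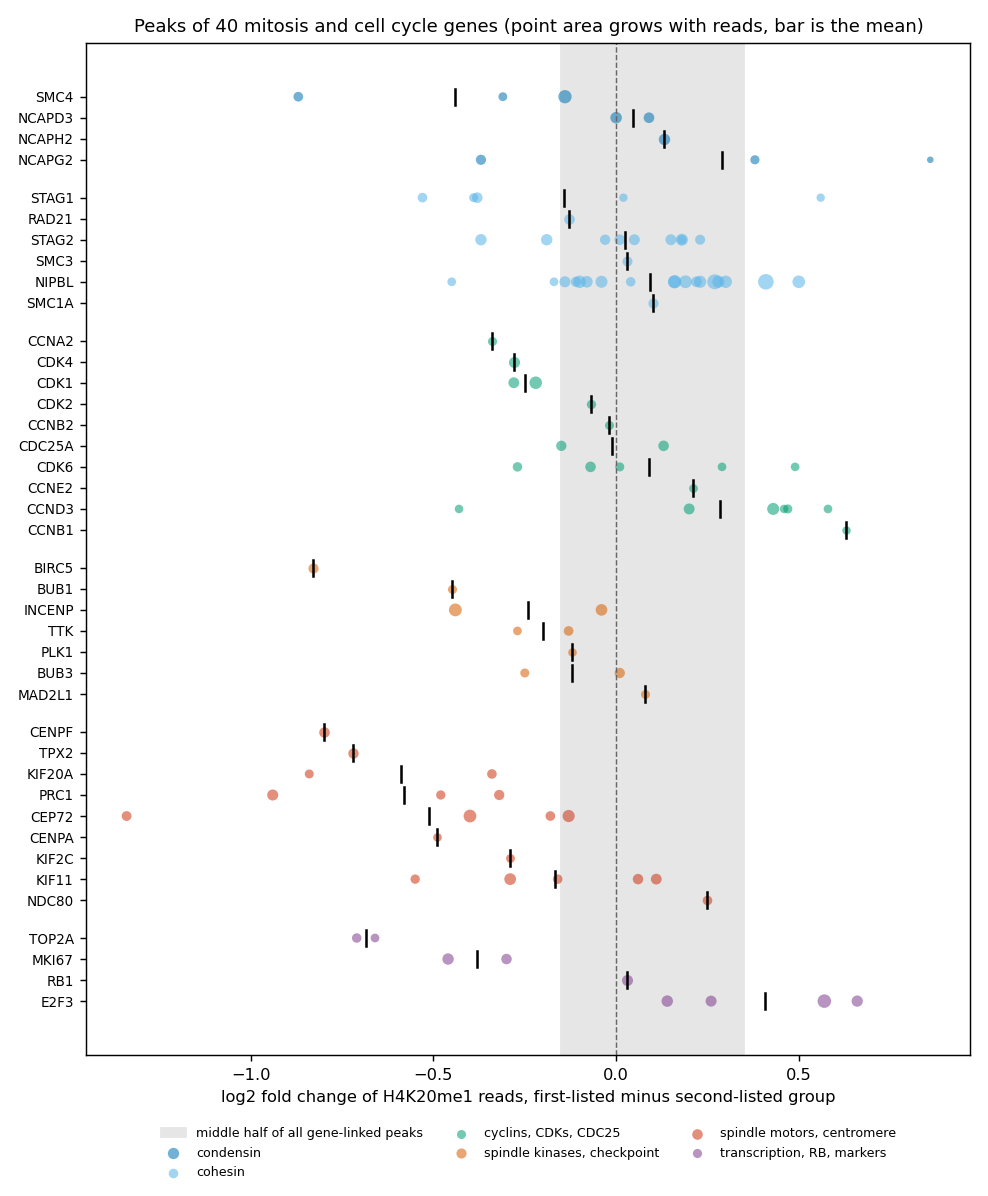
Each point is 1 of the 103 peaks, placed by its log2 fold change in H4K20me1 reads (horizontal axis, first-listed minus second-listed) in the row of its gene, with genes grouped by role and point area growing with reads. The black bar is the mean of a gene's peaks and the grey band spans the quartiles of all gene-linked peaks, −0.15 to 0.35; bars of 14 of 16 spindle genes lie left of 0, while those of cohesin lie near 0.

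Condensin compacts chromosomes for mitosis in a pair of forms that share SMC2 and SMC4. Of 8 condensin genes, 4 had a peak, with 9 peaks in all. The 3 subunits specific to condensin II, NCAPD3, NCAPG2 and NCAPH2, each had at least 1 peak, and the 3 specific to condensin I, NCAPD2, NCAPG and NCAPH, had none. Over the 6 peaks of condensin II, first-listed reads summed to 732 and second-listed reads to 746, a log2 ratio of 0.03 (exact 95% interval −0.119 to 0.179). The groups were thus level within counting error at the genes for the condensin form that contacts the mark.

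NCAPD3, a HEAT-repeat subunit, had 209 and 218 reads in a peak inside the gene (chromosome 11, 134164446 to 134167838), a log2 fold change of 0.00. Its other peak (145 and 142 reads) lay outside the gene and overlapped VPS26B. NCAPH2, the kleisin that closes the ring, had 206 and 198 reads in 1 peak that also overlapped SCO2 (chromosome 22, 50522922 to 50524815; 0.13, −0.174 to 0.403). In both genes the values lie closer together than counting error.

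NCAPG2, the other HEAT-repeat subunit, was mixed. The peak over its start held 69 and 55 reads (0.38) and one 8.7 kb inside held 96 and 129 (−0.37). The remaining peak, with 7 and 4 reads, gave 0.86, the highest value in condensin, with an interval of −1.11 to 3.08. That sparse peak carries most of the mean (0.29), and the summed reads, 172 and 188, gave −0.071 (−0.378 to 0.235), and the peak at or above the median signal alone gave −0.37.

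SMC4, the ATPase shared by both condensins, was lower in all 3 of its peaks. The peak near its start (chromosome 3, 160399262 to 160402027) had the most reads in condensin, 391 and 448, at −0.14 (−0.339 to 0.06). A peak 10.4 kb into the gene (160409835 to 160410351) held 60 and 114 reads, at −0.87 (−1.35 to −0.406), with an unadjusted p of 0.036 and an adjusted p of 0.963 in the authors' deposited table. The summed reads, 496 and 620, gave −0.265 (−0.438 to −0.092), a smaller difference than the mean of −0.44. Over the 4 condensin genes the median was 0.087, and −0.027 with equal reads in peaks, so its side of 0 depends on the scaling.

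Cohesin, the ring that holds sister chromatids together and shapes interphase loops, had the widest coverage: 6 of 6 genes had a peak, with 35 peaks. Summed reads were 7547 and 7194, a log2 ratio of 0.126 (0.079 to 0.173), close to the 0.136 of all peaks with a gene symbol. The median over its genes was 0.027, with 4 above 0 and 2 below, but −0.087 with all 6 below 0 under equal reads in peaks. Most of the reads came from NIPBL, the loader of cohesin.

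NIPBL held 18 peaks, and only 32 of 9020 genes held more. In its first intron, 11 peaks between 36882230 and 36947539 on chromosome 5 had 3960 and 3485 reads, with 8 of 11 above 0. The strongest (36885407 to 36888010) held 969 and 758 reads, at 0.41 (0.273 to 0.55), and was stronger than 99.8% of all peaks. Further in, from intron 6 of 46 onward, 4 peaks outside the promoter class held 316 and 363 reads, with 3 of 4 below 0. The intervals of all 4 include 0, and a promoter-class peak in the same stretch held 154 and 138 reads (0.22). All 18 summed to 5489 and 4981 (0.197, 0.142 to 0.253). Of the 18 values 11 were above 0, against 11978 of 19663 peaks with a gene symbol. Intervals lay above 0 in 5 of the 18, against 20.1% of gene-linked peaks. These 5 were among the 8 such peaks of all roles. The mean of its peaks was 0.093, and −0.021 with equal reads in peaks.

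STAG2, the cohesin subunit often mutated in myeloid leukemia, was level as deposited: 9 peaks summed to 1398 and 1454 reads, a ratio of 0.00 (−0.107 to 0.107). The mean of its peaks was 0.023, and −0.091 with equal reads in peaks. Its strongest peak held 274 and 252 reads (0.18, −0.074 to 0.43). STAG1, its paralog, was lower by summed reads, with 314 and 396 in 5 intron peaks (−0.278, −0.496 to −0.06). The mean of its peaks was −0.144, with 3 below 0 and 2 above. With recovered reads halved, the interval of each STAG1 peak includes 0. STAG1 also spanned the whole range of cohesin, from 66 and 99 reads (−0.53) to 41 and 29 reads (0.56), and its strongest peak held 120 and 162 reads (−0.38). The core ring subunits had 1 peak each: 133 and 151 reads in RAD21, 112 and 109 in SMC1A, and 101 and 103 in SMC3. Their log2 fold changes of −0.13, 0.10 and 0.03 all had intervals that include 0.

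**Figure D2:**
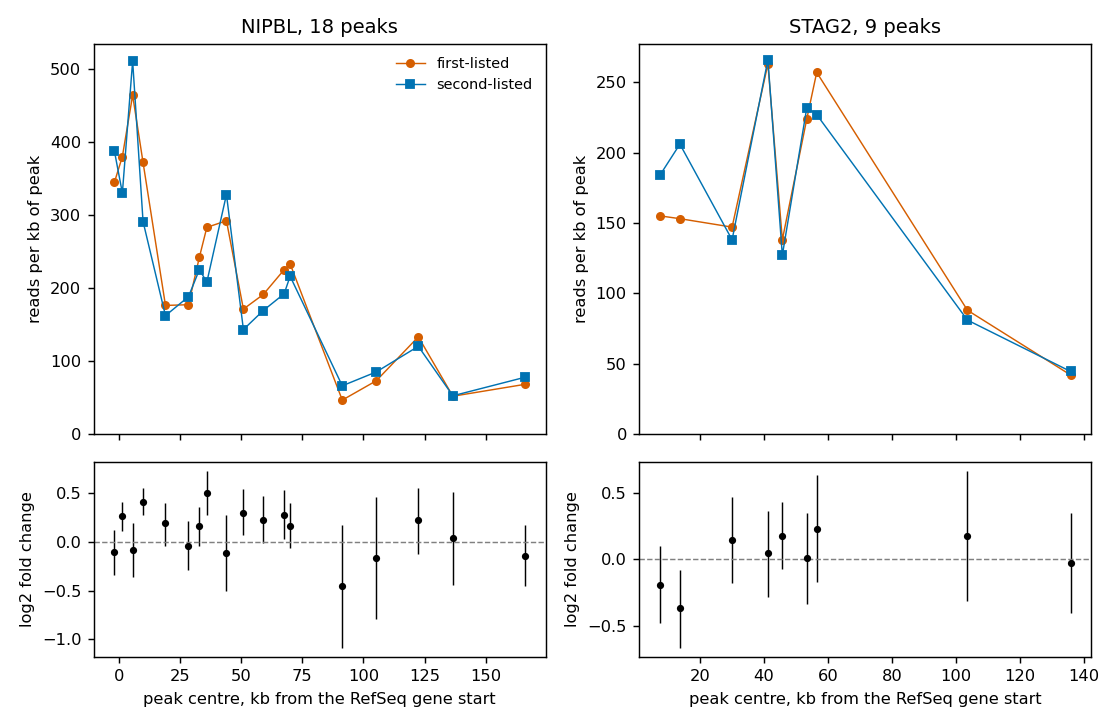
Upper panels plot reads per kb of peak in the first-listed (circles) and second-listed (squares) group against the distance of the peak centre from the RefSeq gene start in kb, for the 18 peaks of NIPBL and the 9 of STAG2. Lower panels give the log2 fold change with its exact 95% counting interval. As deposited, 11 of 18 values in NIPBL lie above 0, against 11978 of 19663 peaks with a gene symbol. In STAG2 values scatter on both sides of 0.

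The cyclins, their kinases and the CDC25 phosphatases that activate them were divided. Of 15 genes 10 had a peak, with 6 below 0, 4 above and a median of −0.015. Summed reads over their 21 peaks were 2114 and 2165 (0.023, −0.065 to 0.11). Genes of entry into mitosis were not alike: CDK1, the kinase that drives it, was lower in both peaks, while its partner CCNB1 had the highest peak of this role, with an interval that includes 0.

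CDK1 had the strongest peak of this role, with 286 and 349 reads at its promoter (chromosome 10, 60778261 to 60780885; −0.22). With its second peak, reads summed to 425 and 523 (−0.242, −0.43 to −0.055). With recovered reads halved, as if both ends of a fragment had been counted, the intervals of both CDK1 peaks include 0. CCNB1, which encodes cyclin B1, held 46 and 31 reads (chromosome 5, 69166992 to 69167478), at 0.63 (−0.062 to 1.33). CCNB2, for cyclin B2, held 54 and 57 reads (−0.02), and CCNA2, for the cyclin A of S phase and G2, 50 and 66 (−0.34). The intervals of these 3 cyclins include 0, and each had fewer reads than the median peak of the table. CDC25A, which removes inhibitory phosphates from these kinases, had 252 and 262 reads in 2 peaks.

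Among genes of G1, CCND3, the only D-type cyclin gene of the set with a gene-linked peak, was higher. It held 6 peaks with 667 and 554 reads (0.325, 0.16 to 0.49), 5 of 6 above 0. The strongest held 294 and 227 reads (0.43), and an intron peak of 35 and 49 reads gave the lowest value of the role (−0.43). Peaks around CCND3 were also higher, with a local median of 0.19, and after that was subtracted the mean of CCND3 was 0.095 in place of 0.285. Its kinase partners had 154 and 194 reads at CDK4 (−0.28, −0.591 to 0.037) and 353 and 364 over 5 peaks of CDK6 (0.013, −0.203 to 0.228), with intervals that include 0. CDK2 held 64 and 70 reads (−0.07). The CCNE2 peak (49 and 44 reads) lay outside that gene, in intron 1 of 7 of NDUFAF6.

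Spindle genes were the lowest of the roles by their median. Of 25 genes for spindle kinases, checkpoint proteins, motors, centromere and centrosome, 16 had a peak, and 14 of 16 had a mean below 0, on 10 chromosomes. Of their 29 peaks 24 were below 0 (82.8%), and first-listed reads summed to 3037, second-listed reads to 4016, a log2 ratio of −0.346 (−0.415 to −0.278). The median over genes was −0.37, and −0.508 after subtraction of local medians. Of the 29 peaks, 4 were those of CEP72, which earlier results had already placed among the lowest genes. All 4 were below 0, with 676 and 917 reads, and the spindle values were not computed without CEP72. The difference between roles was not tested.

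The kinases, checkpoint and chromosomal passenger genes had a peak in 7 of 13 cases, with 1012 and 1277 summed reads (−0.279, −0.399 to −0.158). BIRC5, which encodes survivin, was the lowest, with 76 and 141 reads (chromosome 17, 78218742 to 78220297) at −0.83 (−1.26 to −0.422). The authors' deposited table gave this peak an unadjusted p of 0.0394. It lies on a part of chromosome 17 whose peaks were lower as a whole, and after the local median of −0.215 was subtracted the value was −0.615. INCENP, the scaffold of the same passenger complex, had the strongest peak of these genes, 294 and 418 reads at the start (chromosome 11, 62124060 to 62126118; −0.44, −0.671 to −0.232). Its second peak, at the 3′ end, held 215 and 230 reads (−0.04), so the wider gap was at the start of the gene.

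The checkpoint genes had fewer reads. BUB1, a kinase of the spindle checkpoint, held 47 and 67 (−0.45), TTK, its upstream kinase, 119 and 140 over 2 peaks, and BUB3, which brings BUB1 to kinetochores, 166 and 182 over 2 peaks. MAD2L1, for the MAD2 protein that restrains the anaphase-promoting complex, was the highest at 56 and 55 reads (0.08). Intervals of all 4 genes include 0. The PLK1 peak (39 and 44 reads) lay outside PLK1 and overlapped DCTN5.

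The motor, centromere and centrosome genes had a peak in 9 of 12 cases and a median of −0.513, with 8 of 9 below 0. Their 19 peaks summed to 2025 and 2739 reads (−0.379, −0.462 to −0.295). The median of −0.513 is the mean of CEP72 itself, and the values of this role were not computed without CEP72. In the authors' deposited table, 4 of the 19 peaks were lower with an unadjusted p under 0.05, against 1.31% of gene-linked peaks. These 4 are among the 6 such peaks of all roles. They include a peak of CEP72, a gene that earlier results of these data had already placed among the lowest. The lowest was in intron 4 of 11 of CEP72, a centrosome gene, with 51 and 134 reads (chromosome 5, 628187 to 629076) at −1.34 (−1.83 to −0.861) and an unadjusted p of 0.00145 in the authors' deposited table. The other 3 peaks of CEP72 were closer to level, from −0.40 to −0.13, among them the strongest of this role, 292 and 401 reads in exon 8 of 12 (−0.40, −0.623 to −0.179).

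PRC1, which bundles microtubules of the central spindle, was lower in all 3 peaks, with 269 and 437 reads (−0.643, −0.868 to −0.421). Its lowest peak held 114 and 227 reads (chromosome 15, 90988455 to 90989523) at −0.94 (−1.27 to −0.606), with an unadjusted p of 0.0144 in the authors' deposited table. That peak is annotated to exon 4 of 4 of PRC1-AS1, which is antisense to PRC1, and the 2 transcription units cannot be told apart by a chromatin mark. The peak over the promoter printed above held 100 and 130 reads (−0.32, −0.712 to 0.066).

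CENPF, a kinetochore protein of G2 and mitosis, held 96 and 174 reads (chromosome 1, 214605918 to 214608184) at −0.80 (−1.18 to −0.433), with an unadjusted p of 0.042 in the authors' deposited table. TPX2, which activates Aurora A on the spindle, held 91 and 156 reads at its start (−0.72, −1.11 to −0.338). KIF20A, a kinesin of cytokinesis, held 38 and 71 reads 7 kb downstream of its start (−0.84, −1.45 to −0.257), with an unadjusted p of 0.0459 in the authors' deposited table. Its other peak, 70 and 92 reads, lay outside the gene and overlapped BRD8. The peaks around CENPF, TPX2 and KIF20A had local medians above 0. Subtracting these took the gene means from −0.80 to −0.90 in CENPF, from −0.72 to −0.90 in TPX2 and, over both of its peaks, from −0.59 to −0.77 in KIF20A.

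KIF11, the kinesin that pushes spindle poles apart, was closer to level. Its 5 peaks summed to 620 and 710 reads (−0.139, −0.296 to 0.019). The promoter peak held 75 and 87 (−0.16), the peaks at 2.26 and 8.84 kb were at 0.11 and 0.06, and those at 21 and 35 kb at −0.29 and −0.55. CENPA, the centromeric histone H3, held 35 and 51 reads (−0.49) and KIF2C, a kinesin that shortens microtubules, 44 and 56 (−0.29), with intervals that include 0. NDC80, which attaches kinetochores to microtubules, was the exception at 86 and 75 reads (0.25, −0.209 to 0.721).

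**Figure D3:**
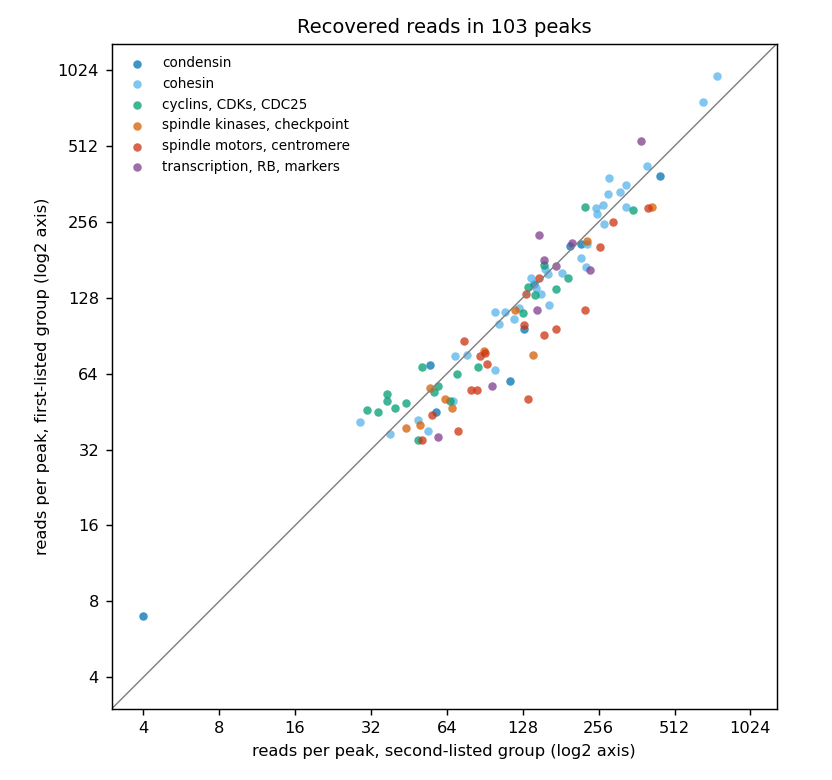
Each point is 1 of 103 peaks, with recovered reads in the second-listed group (horizontal) against the first-listed group (vertical), on log2 axes, coloured by role; the line marks equal reads. Most spindle peaks lie under the line, and the deepest peak, in NIPBL, holds 969 and 758 reads.

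Of 6 genes of cell cycle transcription, RB and proliferation markers, 4 had a peak, and they stood apart from each other. E2F3, an activator of S-phase genes, was higher in all 4 peaks, with 1154 and 882 reads (0.445, 0.317 to 0.573). Its strongest peak, in intron 2 of 4, held 534 and 377 reads (chromosome 6, 20409582 to 20412164; 0.57, 0.366 to 0.753), and its highest held 228 and 149 (0.66, 0.367 to 0.978). The promoter peak was nearly level, with 212 and 200 reads (0.14). RB1, the repressor of E2F, held 171 and 174 reads (0.03).

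TOP2A, the topoisomerase that disentangles sister chromatids, was lower in both peaks. The one over the promoter printed above held 57 and 97 reads (chromosome 17, 40416634 to 40418098) at −0.71 (−1.21 to −0.223), and the other 36 and 59 (−0.66, −1.3 to −0.034). MKI67, the Ki-67 proliferation marker that coats mitotic chromosomes, held 114 and 146 reads at its start and 165 and 237 at its 3′ end, a summed ratio of −0.40 (−0.628 to −0.174). Both genes were thus lower, and E2F3 higher, beyond counting error.

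Values below 0 were more frequent among promoter peaks than among intron peaks. Of the 50 promoter peaks 31 were below 0 (62.0%, against 37.83% of all promoter peaks), with a median of −0.13. Of the 44 intron peaks 18 were below 0 (40.91%, against 38.19%), with a median of 0.045. Without NIPBL and STAG2, 10 of 22 intron peaks were below 0. Exon peaks were below 0 in 4 of 5 cases, against 38.09% of all exon peaks. Peaks in untranslated regions were below 0 in 3 of 4, against 40.84% of all gene-linked peaks outside promoters, introns and exons. Both exon peaks of CEP72 and the PLK1 peak that lay outside PLK1 are among these low peaks. Cohesin held 27 of the 44 intron peaks, and the part of role in the difference between classes was not tested. The promoter class refers to any transcript start in the annotation: 32 of the 50 peaks lay within 3 kb of the RefSeq start of the gene, and 21 of these 32 were below 0. Those of BIRC5 (5.27 kb in), SMC4 (10.4 kb), NCAPH2 (15.6 kb), RAD21 (22.9 kb) and SMC1A (40.8 kb) lay further inside. The peaks that cover the RefSeq start itself were below 0 in 11 of 16 genes. Shares over all genes by distance from the RefSeq start were not computed.

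Position in the genome was examined because neighbouring peaks differed together. Each peak was set against the median of other peaks within 2.5 Mb on either side, with the 60 genes left out. After this subtraction 30 of 40 genes were below 0 (75%, against 49% of all genes), and the median was −0.165, against 0.00. Centring on neighbours holds the values over all genes near 0 by construction. For genes outside the set, a gene's own other peaks stayed in the window, so both sides were not centred alike. Among the 31 genes with at least 20 other peaks in the window the median was −0.318, with 24 below 0. The local median of MKI67 rests on 3 peaks and that of STAG2 on 7. Earlier results of these data had shown lower values on chromosome 2 up to 90 Mb, chromosome 9 from 40 Mb and chromosome 17 from 25 Mb. Without these stretches, which held BIRC5, TOP2A and CENPA, 22 of 37 genes were below 0 and 8 peaks were at −0.5 or lower. No share over all genes or peaks was computed outside these stretches, nor for the choice of the 31 genes, so these counts have no matching background.

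**Figure D4:**
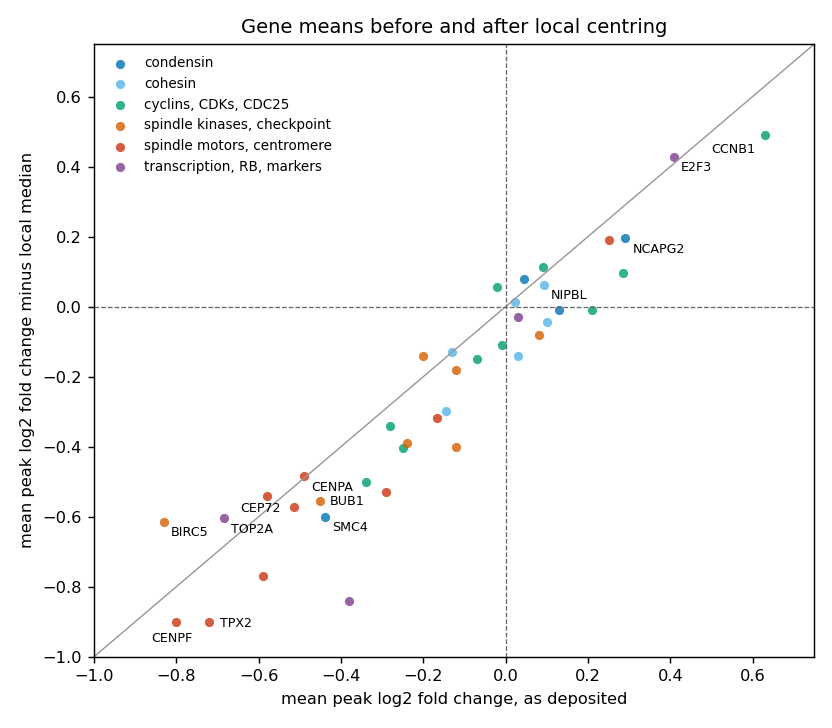
Each point is 1 of 40 genes, with its mean peak log2 fold change as deposited (horizontal) against the same mean after subtraction of the local median (vertical), coloured by role; the solid line marks equal values and dashed lines mark 0. After centring 30 of 40 genes lie below 0, with CENPF and TPX2 at −0.90.

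Further genes of the same processes were described from 6 lists with 133 genes, of which 81 had a peak. The authors' deposited table gives 8 of their 169 peaks an unadjusted p under 0.05, 2 of them higher in the first-listed group and the rest lower, against 3.89% higher and 1.31% lower among gene-linked peaks, and none passed after adjustment. The mean was below 0 in 49 of 81 genes, above in 31 and at 0 in 1, with a median of −0.05, against 38.1% of all genes below 0. Other kinetochore and centromere genes were below 0 in 12 of 16 cases (median −0.115). Among them SKA2, of the complex that couples kinetochores to microtubules, held 107 and 207 reads (−0.90), and ZW10, of the checkpoint, 46 and 42 (0.19). Other spindle, centrosome and cytokinesis genes were below 0 in 9 of 16 (median −0.009), from KIF18B, a kinesin, with 162 and 280 reads over 3 peaks (−0.75) to CENPJ, a centriole gene, with 25 and 22 (0.24).

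Subunits and partners of the anaphase-promoting complex, the ligase that ends mitosis, were below 0 in 6 of 9 cases (median −0.043). CDC27 was lower in all 4 peaks, with 442 and 642 reads (−0.482, −0.66 to −0.304), and ANAPC13 held 89 and 59 (0.65). Regulators of cohesin and condensin were below 0 in 4 of 10 (median 0.135), from SGO2, which protects centromeric cohesion, with 40 and 67 reads (−0.69) to CDCA5, which encodes sororin, with 76 and 51 (0.63). Other E2F, RB and DREAM genes were below 0 in 8 of 10 (median −0.17), with E2F7, a repressor, at 108 and 163 reads and TFDP2, a partner of E2F proteins, at 1111 and 888 over 8 peaks (0.38, 0.252 to 0.509). Other regulators of cyclins and their kinases were below 0 in 10 of 20 (median 0.041), with CDKN3 lowest at 56 and 105 reads (−0.85) and CDKN1A highest at 87 and 46 (0.98).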

How the data were processed

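H4K20me1 CUT&Tag was deposited as 1 table for 4 libraries, 2 per group, with 1 column per group. The submitters' processing notes name build hg38, cutadapt and Bowtie2 for every library. Only for the first library of each group do the submitters' processing notes also name DESeq. The peak caller, tool versions and duplicate handling were not given in the sources used here, nor was whether a column holds 1 library or 2. The authors deposited log2 scaled reads for each peak, log2 fold changes, p-values and adjusted p-values. Separate cultures are not stated for libraries of a group. With no spike-in and no antibody-free control in the analysis, a loss that is even over the genome would not be seen.

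Whole reads were recovered from the log2 columns the authors deposited: 100% of low values (log2 1.5 to 5.5) in both columns were whole reads after removal of a constant of 0 or −0.057. Above 144 reads, which 47 of the 103 peaks exceed, a value does not fix 1 whole number. Ratios have exact Clopper-Pearson 95% intervals, which are too narrow if both ends of a fragment were counted. With 1 column per group no test was made here, and p-values are the authors'. A gene's value is the mean log2 fold change of its peaks, and the log2 ratio of summed reads is given with its interval. Read recovery, intervals and local medians were tested on simulated data. Gene starts, lengths and promoter windows came from RefSeq (GRCh38.p14), in which 60 of 60 genes and, for windows, 48 of 60 matched. Of 49 exon and intron peaks, 2 named another host gene.

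The genes, roles and lists were chosen with earlier results of these data known. Values were to be given for the lowest, highest and deepest peak of each role, peaks with an unadjusted p under 0.05, the leading peak of each condensin and cohesin gene, and the lowest and highest gene of each other list; further genes were named after their values were seen. Alternatives covered host-gene assignment, promoter peaks, signal, scaling, local medians, chromosome segments, summed reads and p limits. Leaving out CEP72 or NIPBL and STAG2, no scaling and halved reads were chosen after seeing the data. Software was Python 3.11.15, NumPy 2.4.6, pandas 2.3.3, SciPy 1.17.1 and matplotlib 3.10.9.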

Additional observations from a re-analysis of the deposited data

How the results depend on the processing

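No paired analysis was possible because the table has no column per library, and leaving out single libraries could not be run for the same reason. The median over genes of −0.125 was −0.239 with equal reads in peaks, −0.182 without scaling (which moves every value by −0.057) and −0.165 minus local medians. The 11 peaks at −0.5 or lower numbered 7 of 50 in promoters only, 20 of 103 with equal reads in peaks and 21 of 103 minus local medians. Under the same settings the shares over all gene-linked peaks were 6.26%, 11.2% and 8.95%. The 7 at 0.5 or higher numbered 2 in promoters only, 3 at or above the median signal, 3 with equal reads in peaks and 4 minus local medians. Here the shares over all gene-linked peaks were 13.3%, 15.9%, 9.21% and 9.85%. The scaling values follow from the constants subtracted, and those for promoters and signal rest on fewer peaks (50 and 71); for local medians the cause was not tested. By the authors' deposited table, 0 peaks passed an adjusted limit of 0.05, 0 passed one of 0.1 and 6 passed an unadjusted limit of 0.05. With reads halved, intervals lay below 0 in 10 peaks in place of 18 (2.99% of gene-linked peaks) and above 0 in 6 in place of 8 (11.1%). Genes with a mean below 0 numbered 25, and 26 by host gene, 24 of 36 in promoters, 19 of 30 at or above the median signal, 29 without scaling and 25 without NIPBL and STAG2. Of 379 values of single genes under alternatives, 366 stayed within the spread of their peaks or counting interval and 13 moved. This count does not measure how stable the values are. Leaving out CEP72, NIPBL and STAG2 or the chromosome segments cannot change the value of a gene that remains. Genes with 1 peak are likewise fixed, up to rounding, under summed reads, as are genes with promoter peaks alone under promoter peaks only. STAG1 was at −0.455 and CDK6 at −0.170 with peaks of at least median signal only.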
